A study of Mus musculus with 107 samples.

Results

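Apoa1, Apoc3 and Apoa4 are apolipoprotein genes that lie side by side on mouse chromosome 9. They were picked by name as the genes of this cluster, with no threshold on their values, and are 3 of the 12315 genes measured here. Each was read by 1 probe, which gave a value on every array used, so no second probe backs any of the 3 values. The samples were livers of female F2 mice, bred from the strains C57BL/6J and DBA/2J and kept on an atherogenic diet, a diet that raises blood lipids and that no mouse in the data went without. Liver RNA of each mouse competed on a 2-colour array with RNA of a common pool, which the labels describe as made of equal parts of the individual RNAs. All mice formed 1 group of 104, each on 1 array, with neither a treated nor a control group, so the comparisons are between genes over mice. The ages of the mice, their genotypes and the time of day of tissue collection were not used here.

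Apolipoproteins are the protein part of lipoproteins, the particles that carry cholesterol and triglyceride in blood. Apoa1 encodes the main protein of high-density lipoprotein (HDL), which takes up cholesterol from cells and activates the esterifying enzyme LCAT. Apoc3 encodes a protein that slows the clearance of triglyceride-rich particles, in part by inhibiting lipoprotein lipase. Apoa4 encodes a protein of chylomicrons and HDL that is made in both the intestine and the liver of mice, and its liver mRNA is known to rise with fat accumulation in mice. Apoc3 is read in the opposite direction to both other genes, and work on the human genes describes an enhancer upstream of APOC3, bound by the nuclear receptor HNF4A, that acts on the whole cluster.

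The values were read as log10 ratios of mouse to pool and are given as log2 ratios. Neither the base nor the direction is stated in the sources used here. Values stopped at exactly -2 and 2, which is 100-fold in base 10, and under a smaller base each fold would be smaller while correlations would stay the same. The direction was not settled: no dye was named, and 7 of 5356 pairs of arrays, involving 10 arrays, correlated below -0.3, the lowest at -0.463. Mouse over pool is likely from the wording of the sample titles. With every sign turned, each level below keeps its size and changes sign, and low and high mice change places. SDs and correlations then stay as they are. That holds only where all arrays are turned together. If only some arrays were turned, SDs, correlations and calls would change too, and this case was not tested. Array medians ran from -0.09 to 0.07 log2. A set of 18 arrays held 946 to 1828 values at the limits, against at most 496 on the other 86, and these 18 are called limit-rich arrays. They were set apart by that count alone, and no label names them as a batch. The reported fits made no adjustment for them. They were left out, taken alone or fitted as a batch term only in alternatives. No RNA was put on a second array, so differences between mice and noise between arrays are read together, and precision is set by how many arrays there were. Ratios to a pool of the same livers give no absolute level, so the tissue could not be checked by the abundance of its markers. Of 16 general hepatocyte genes, 13 were measured. In whole liver, fewer cells of a type and less RNA per cell cannot be told apart.

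The promoters of Apoa1 and Apoa4 are shown because the genes share a setting on the chromosome and the receptors known to bind it were measured on the same arrays. Both sequences run from 250 bases before to 50 bases after the RefSeq start, on the plus strand of GRCm38.p6, at chr9:46228380-46228679 for Apoa1 and chr9:46240594-46240893 for Apoa4. Capitals mark AGTTCA, a half-site of the kind that nuclear receptors bind, searched on both strands, and in Apoa1 the match lies on the minus strand and so reads TGAACT.
Apoa1: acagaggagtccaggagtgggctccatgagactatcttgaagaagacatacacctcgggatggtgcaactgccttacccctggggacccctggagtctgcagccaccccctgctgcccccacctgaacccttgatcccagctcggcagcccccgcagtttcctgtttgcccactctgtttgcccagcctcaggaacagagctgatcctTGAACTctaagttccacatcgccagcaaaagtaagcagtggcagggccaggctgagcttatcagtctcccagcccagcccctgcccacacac
Apoa4: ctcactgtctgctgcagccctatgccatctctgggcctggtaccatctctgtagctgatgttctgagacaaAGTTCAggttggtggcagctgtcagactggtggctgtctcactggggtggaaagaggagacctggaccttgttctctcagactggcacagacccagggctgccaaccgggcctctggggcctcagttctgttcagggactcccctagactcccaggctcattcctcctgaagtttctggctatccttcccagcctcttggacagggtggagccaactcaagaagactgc

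Counted from the start of the transcript, the Apoa1 match lay at position -42 and the Apoa4 match at -179. In Apoa4 it was the last part of CAAAGTTCA, at position -182, which matches CAAAGTNCA, a longer pattern like the site HNF4A prefers and one that overlaps AGTTCA. The Apoa1 window held no CAAAGTNCA, and neither window held TATAAA or CCAAT. The motif AGTTCA occurs in 14.0% of 32817 mouse promoters of this length, CAAAGTNCA in 1.41%, TATAAA in 13.6% and CCAAT in 37.4%. The matches are descriptions of these letters. Apoc3 is named without a sequence.

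The 3 genes differed in both their measured ratio to the pool and their spread. Apoa1 had a lowest value of -1.62, a median of -0.27 and a highest value of 0.56 log2 over the 104 mice, with a mean of -0.29 ± 0.42 (SD). Of these mice 78 lay below the pool and 26 above it, and 7 were at least 2-fold below. Apoc3 had a lowest value of -1.86, a median of 0.10 and a highest value of 1.14 log2, with a mean of 0.05 ± 0.49 (SD, n = 104). Apoc3 therefore sat around the pool, with 60 mice above it and 44 below. Apoa4 had a lowest value of -1.998, a median of -0.55 and a highest value of 0.58 log2, with a mean of -0.54 ± 0.59 (SD, n = 104). For Apoa4, 81 mice lay below the pool and 23 above, 22 of them at least 2-fold below and 0 at least 2-fold above. Only 1.21% of all genes had a lower median than Apoa4, against 4.00% for Apoa1 and 88.0% for Apoc3. With signs turned these become shares of genes with a higher median. If the pool held these RNAs in equal parts, the mean linear ratio of a gene would lie near 1. It was 0.745 for Apoa4, 0.849 for Apoa1 and 1.10 for Apoc3, with a median of 1.04 over all genes. The cause of these offsets was not tested, so counts below and above the pool describe measured ratios.

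**Figure D1:**
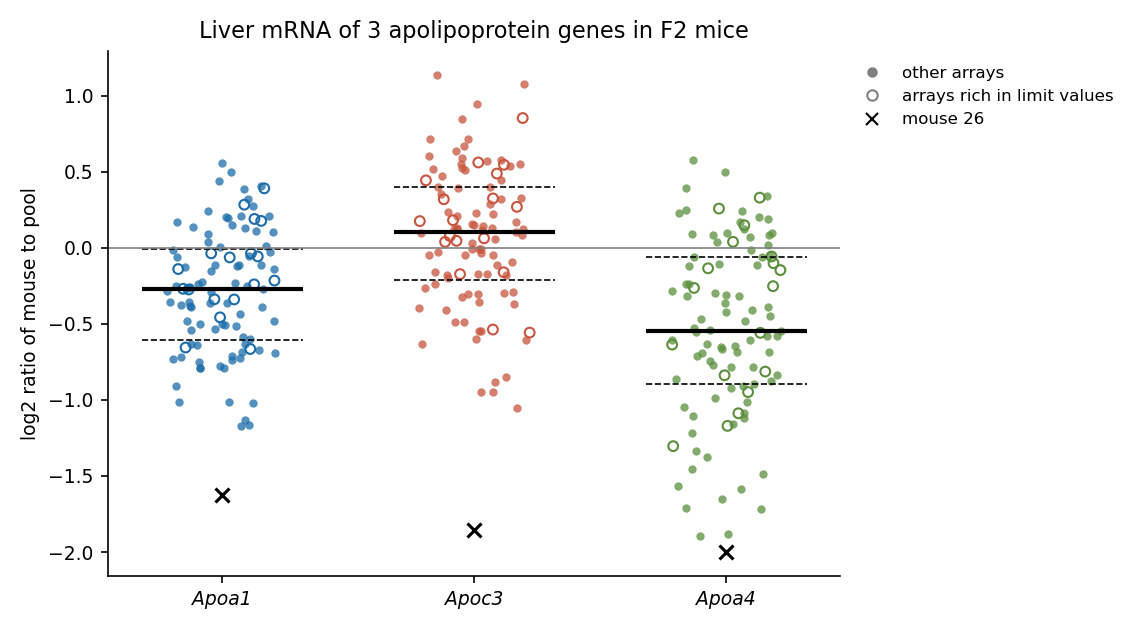
Log2 ratio of mouse to pool (vertical axis) of Apoa1, Apoc3 and Apoa4 in each of 104 mice, 1 point per mouse. Open circles are the 18 limit-rich arrays, the cross is mouse 26, the thick line is the median and the dashed lines are the quartiles. Most mice lie below the pool for Apoa1 and Apoa4, Apoc3 lies around it, and mouse 26 is the lowest for each gene.

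Apoa4 varied most among the 3. Its 5th to 95th percentile range was 3.72-fold, against 2.89-fold for Apoc3 and 2.63-fold for Apoa1. Its SD was larger than that of Apoa1, by 0.50 on the log2 scale (p = 2e-05, two-sided permutation test that swaps the centred values of both genes within mice, n = 104), and larger than that of Apoc3 by 0.28 (p = 0.0183). The SD of Apoc3 exceeded that of Apoa1 by 0.22, which did not pass (p = 0.0873). These are raw p-values of 3 tests. Among all genes, the SD of Apoa4 was larger than that of 81.5%, of Apoc3 72.8% and of Apoa1 64.5%, so none of the 3 was among the widest genes of these livers. On the 86 other arrays the SDs differed in the same way, by 0.47 for Apoa4 over Apoa1 and 0.25 for Apoa4 over Apoc3, and on the 18 limit-rich arrays by 0.80 (p = 0.0137) and 0.48 (p = 0.147).

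Single mice showed how far the neighbours could move together or apart. Mouse 26 was lowest for all 3 genes, at -1.62 for Apoa1, -1.86 for Apoc3 and -1.998 for Apoa4. Mouse 78 had the highest Apoa4 value (0.58) and the second lowest Apoc3 value (-1.05), with Apoa1 at -0.64. Mouse 20 was alike, with the second highest Apoa4 value (0.50) beside -0.95 for Apoc3 and -1.16 for Apoa1. Mouse 122 went the other way, with the highest Apoa1 value (0.56) beside -0.39 for Apoc3 and -1.49 for Apoa4. Their arrays stood apart from the rest: each array was correlated with the median of the others over all genes, and r was 0.0415 for mouse 26, 0.00999 for mouse 78, 0.0945 for mouse 20 and 0.136 for mouse 122, against a median of 0.361 over all arrays. These mice were picked for their extreme values and were not compared as groups.

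Over all mice the 3 genes varied together, and the correlations were moderate. Apoa1 and Apoc3 had a Pearson r of 0.470 (95% interval 0.305 to 0.608, permutation p = 1e-05, the smallest that 100000 permutations can give) and a Spearman rho of 0.443 (n = 104). Apoc3 and Apoa4 had r = 0.303 (interval 0.117 to 0.468, permutation p = 0.0017, rho = 0.333). Apoa1 and Apoa4 had r = 0.286 (interval 0.0990 to 0.454, permutation p = 0.00329, rho = 0.313). The 3 genes thus ranked mice alike only in part: 12 of the 26 mice with the lowest Apoa1 were also among the 26 with the lowest Apoc3, and 5 mice were among the lowest 26 for all 3. Among the highest 26 for all 3 were 9 mice. Of 104 mice, 49 lay on the same side of the median for all 3 genes.

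**Figure D2:**
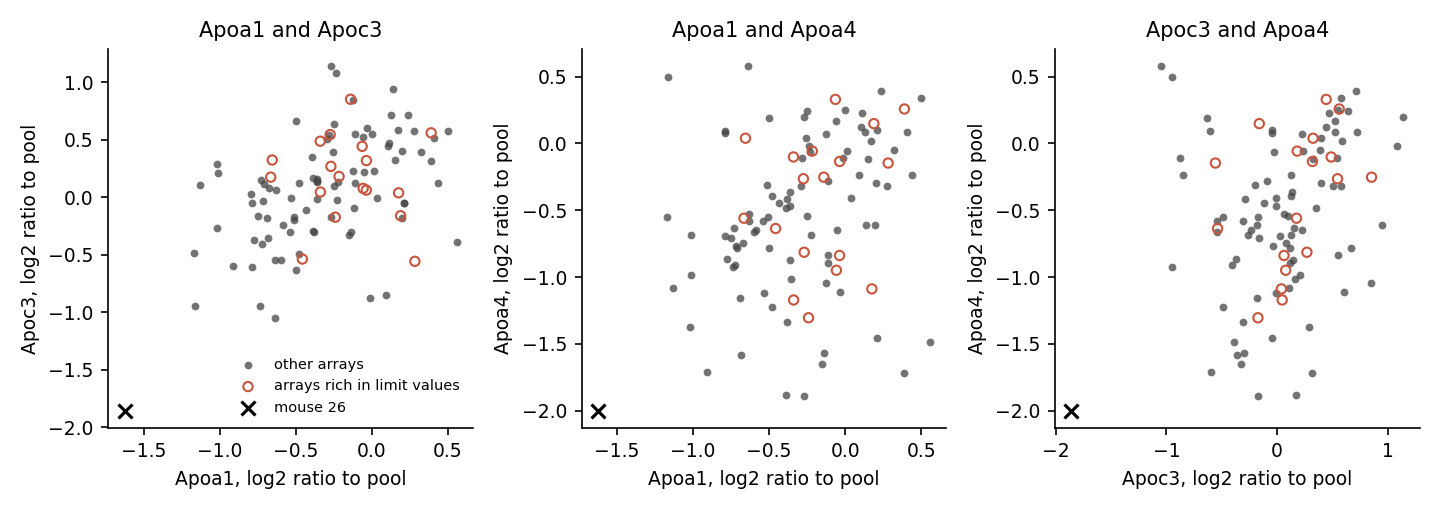
Log2 ratio to the pool of each pair of the 3 genes, 1 point per mouse (n = 104), with the 18 limit-rich arrays as open circles and mouse 26 as a cross. Apoa1 and Apoc3 have r = 0.470, Apoa4 has 0.286 with Apoa1 and 0.303 with Apoc3, and mouse 26 lies at the low end of every panel.

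Over all 104 mice no pair was shown to be closer than another. The r of Apoa1 with Apoc3 exceeded its r with Apoa4 by 0.184 (p = 0.166, two-sided permutation test that swaps the scaled values within mice), the r of Apoc3 with Apoa1 exceeded its r with Apoa4 by 0.167 (p = 0.214), and the r values of Apoa4 with Apoc3 and with Apoa1 differed by 0.0168 (p = 0.872). A partial r, which takes out what both genes share with the third, was 0.420 for Apoa1 with Apoc3 (p = 1e-05), 0.199 for Apoc3 with Apoa4 (p = 0.0440) and 0.171 for Apoa1 with Apoa4 (p = 0.0843), all by permutation of residuals. The middle call was lost without mouse 26, at 0.159 (p = 0.108), and on the 86 other arrays, at 0.172 (p = 0.111). Without mouse 26 the plain r values were 0.398 for Apoa1 with Apoc3, 0.233 for Apoc3 with Apoa4 and 0.228 for Apoa1 with Apoa4. Without the 2 mice farthest from the median they were 0.383, 0.294 and 0.232 in the same order, where the mice left out were those farthest for the gene named first in each pair and so not the same in each, and on the 86 other arrays they were 0.516, 0.288 and 0.285. On the 18 limit-rich arrays the r of Apoa1 with Apoc3 was -0.0876 (permutation p = 0.729), so the relation was not seen there. The r of Apoc3 with Apoa1 minus its r with Apoa4 was -0.452 (p = 0.0223, swap test). Apoc3 with Apoa4 gave 0.364 (permutation p = 0.138) and Apoa1 with Apoa4 0.208 (permutation p = 0.407). So few arrays cannot exclude a moderate r. The SD of Apoa1 was also smaller there, 0.29 against 0.44 on the other 86, and the 2 sets of arrays were not compared by a test.

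The relation of Apoa1 to Apoc3 moved with a score of general hepatocyte genes, while both pairs with Apoa4 moved little. The score was the mean of 13 scaled genes such as the plasma proteins Alb, Ttr and Rbp4. It correlated with Apoa1 at r = 0.741 (rho = 0.719, permutation p = 1e-05 for both), with Apoc3 at r = 0.639 (rho = 0.638, p = 1e-05 for both) and with Apoa4 at r = 0.176 (rho = 0.227, p = 0.0734 for r and 0.0202 for rho). With the score regressed out, Apoa1 and Apoc3 had r = -0.00709 (p = 0.943), Apoc3 and Apoa4 0.252 (p = 0.0100), and Apoa1 and Apoa4 0.236 (p = 0.0161). For each member, the 2 mice farthest from its own median were also left out, so the mice left out were not the same in each. The r of the score was then 0.704 with Apoa1, 0.593 with Apoc3 and 0.118 with Apoa4. Within the 18 limit-rich arrays it was 0.324, 0.577 and 0.197 in the same order, and within the other 86 it was 0.767, 0.642 and 0.167.

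The first principal component over all genes, a single axis that held 16.8% of their variance, followed Apoc3 at r = 0.722 (rho = 0.615, permutation p = 1e-05 for both), Apoa1 at r = 0.318 (rho = 0.279, p = 0.00099 and 0.00415) and Apoa4 at r = -0.147 (rho = -0.137, p = 0.136 and 0.163). With that component removed from every gene, Apoc3 and Apoa4 had the highest r of the 3 pairs, 0.598 (p = 1e-05), with 0.367 for Apoa1 and Apoc3 (p = 0.00011) and 0.355 for Apoa1 and Apoa4 (p = 0.00023). The r of Apoc3 with Apoa1 was then 0.232 below its r with Apoa4 (p = 0.0165), the other way from the unadjusted values. Apoc3 also followed the median of its array (r = 0.641, rho = 0.641, p = 1e-05 for both), as did Apoa1 (r = 0.248, rho = 0.298, p = 0.0113 and 0.0021), while for Apoa4 r was -0.0481 (p = 0.627). The number of the mouse, which need not be a date, correlated with Apoc3 at r = -0.376 (rho = -0.460), with Apoa4 at -0.261 (rho = -0.252) and with Apoa1 at -0.182 (rho = -0.216), with p = 9e-05, 0.00782 and 0.0645 for r. The part of each of these in the relations below was not tested, apart from the values with the component removed or with arrays centred on their median.

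To ask which genes followed each member, every other gene was fitted on it over the 104 mice with limma, with Benjamini-Hochberg adjustment over all genes and a threshold of 0.05. Of 12314 genes, 6083 followed Apoc3 (49.4%), 4225 followed Apoa1 (34.3%) and 1406 followed Apoa4 (11.4%). With the first principal component removed, the counts were 1820, 3718 and 1727 in the same order. Before that removal a gene that followed Apoc3 was thus common, and each count below is to be read against these shares. For Apoc3, 3257 genes (26.4%) were positive and 2826 (22.9%) negative, and with arrays centred on their median the split was 2369 positive and 3328 negative. For Apoa1, 2169 (17.6%) were positive and 2056 (16.7%) negative. For Apoa4, 585 (4.75%) were positive and 821 (6.67%) negative, and without mouse 26 the count was 2152 genes. Both other members were positive in each of the 3 fits, with limma adjusted p of 8.27e-06 for Apoc3 and 0.0120 for Apoa4 on Apoa1, of 2.63e-06 for Apoa1 and 0.00446 for Apoa4 on Apoc3, and of 0.0322 for Apoa1 and 0.0210 for Apoc3 on Apoa4. The members were not each other's leading followers: by r, Apoc3 ranked 439 of 12314 genes with Apoa1, Apoa1 ranked 1017 with Apoc3, and Apoa1 ranked 499 and Apoc3 416 with Apoa4.

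The genes most like Apoa1 included several that encode plasma proteins and liver enzymes, and the first was an immune gene. A shared role was not tested, here or for the genes most like Apoc3 and Apoa4. The first was Cd4, the co-receptor of helper T cells, with r = 0.792 (rho = 0.811, limma adjusted p = 2.77e-19, n = 104). Cd4 gave 0.796 on the 86 other arrays, 0.720 on the 18 limit-rich arrays and 0.786 without mouse 26. Next were Fgg, the gamma chain of fibrinogen (r = 0.701, rho = 0.670), Plg, plasminogen (r = 0.690, rho = 0.663), and Apoc1, an apolipoprotein of both HDL and triglyceride-rich particles (r = 0.688, rho = 0.683). Ugt1a6a, a glucuronosyltransferase, Serping1, the inhibitor of the first complement component, and Arg1, the last enzyme of the urea cycle, followed with r of 0.680, 0.680 and 0.673. Mgst1, Hadh and the retinol carrier gene Rbp4 had r of 0.671, 0.668 and 0.668. At the negative end stood Zfp346 (r = -0.648), Mdn1 (-0.647) and Med23, a subunit of the Mediator complex of transcription (-0.632), then Nsmaf (-0.614), Tcf12 (-0.610) and Tbpl1 (-0.608). On the 18 limit-rich arrays most of these values were nearer 0: beside Cd4, Arg1 gave 0.774 and Fgg 0.444, but Apoc1 gave 0.202, Ugt1a6a 0.191 and Mgst1 0.0270, and at the negative end Mdn1 gave -0.723, Zfp346 -0.00790 and Nsmaf 0.0912. These 16 genes also passed the permutation tests over all genes, with adjusted p of at most 0.000122 for r. They were picked by r in the same mice, so this is no separate support. The same holds for the genes most like Apoc3 and Apoa4 below.

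The genes most like Apoc3 included several that encode mitochondrial and peroxisomal proteins. Higd2a, a mitochondrial respiratory supercomplex factor, had r = 0.821 (rho = 0.783, limma adjusted p = 5.4e-22, n = 104), Mtarc1, an enzyme of the outer mitochondrial membrane, r = 0.814, and Agmat r = 0.811. Apoc4, an apolipoprotein gene of the cluster that holds Apoe, came next at r = 0.801 (rho = 0.748). Phyh and Decr2, peroxisomal enzymes of fatty acid oxidation, had r of 0.799 and 0.793, and Ei24, Gstk1, Aadat and Ndufs3, a subunit of respiratory complex I, r of 0.791, 0.790, 0.789 and 0.782. The most negative were Ttyh3 (-0.820), Map3k1, a kinase of stress signalling (-0.794), and the corepressor Ctbp1 (-0.793), then Asb6 (-0.776), the replication licensing factor Cdt1 (-0.761) and Tnks2 (-0.751). The permutation tests called these 16 genes too, with adjusted p of at most 5.15e-05 for r. With the first principal component removed these values were smaller, from 0.473 for Ndufs3 to 0.620 for Higd2a among the 10 positive genes and from -0.595 for Ctbp1 to -0.481 for Cdt1 among the 6 negative ones.

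The genes most like Apoa4 were led by the transcript 4930543I03Rik, with r = 0.683 (rho = 0.765, limma adjusted p = 1.09e-11, n = 104). Zfp707, a zinc finger gene, followed (r = 0.616, rho = 0.553), then Gfi1b, a transcriptional repressor of blood cell formation (r = 0.576, rho = 0.719), and Fam83c (r = 0.575, rho = 0.686). Dcbld2, Tssc4 and Dnajc4 had r of 0.515, 0.512 and 0.507, and Fam3c, Zdhhc12 and Snrnp35 r of 0.503, 0.503 and 0.498. Erap1, an aminopeptidase of the endoplasmic reticulum that trims peptides for antigen presentation, was the most negative (r = -0.595, rho = -0.602), followed by Cacfd1 (-0.543), Nab1 (-0.542), Fam53a (-0.529), Sos2 (-0.519) and Pias2 (-0.518). By permutation the adjusted p of these 16 genes was at most 0.000905 for r.

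Other apolipoprotein genes, counted with Apobec1, the enzyme that edits Apob mRNA, followed Apoa1 and Apoc3 in most cases. With Apoa4, limma called 0 of these 11 (2 at an unadjusted p under 0.05, and 2 by rho with a permutation test). It called 11.4% of all genes with Apoa4, so 0 of so few genes does not set this list apart. Without mouse 26, 1 was negative with Apoa4, and with arrays centred on their median 1 was positive. Of the 11 measured, 8 were positive with Apoa1 (median r 0.409) and 8 positive and 2 negative with Apoc3 (median 0.420), while the median r with Apoa4 was 0.122. The medians over all genes were -0.000263, 0.0422 and -0.00685 in the same order. Apoc1 and Apoe led with Apoa1, Apoe, the ligand of remnant receptors, at r = 0.655 (rho = 0.682, adjusted p = 2.75e-11). Apoc4 led with Apoc3, followed by Apoa5, an activator of triglyceride clearance and the next gene along from Apoa4 (r = 0.745, rho = 0.680, adjusted p = 2.24e-17), and Apoa2, the second protein of HDL (r = 0.729, rho = 0.658, adjusted p = 1.47e-16). With Apoa4, Apoa5 had r = 0.208 (adjusted p = 0.154), Apoc4 0.189 (adjusted p = 0.208) and Apobec1 0.239 (adjusted p = 0.0867). With the first principal component removed, the counts were 7 positive with Apoa1, 5 with Apoc3 and 3 with Apoa4.

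**Figure D3:**
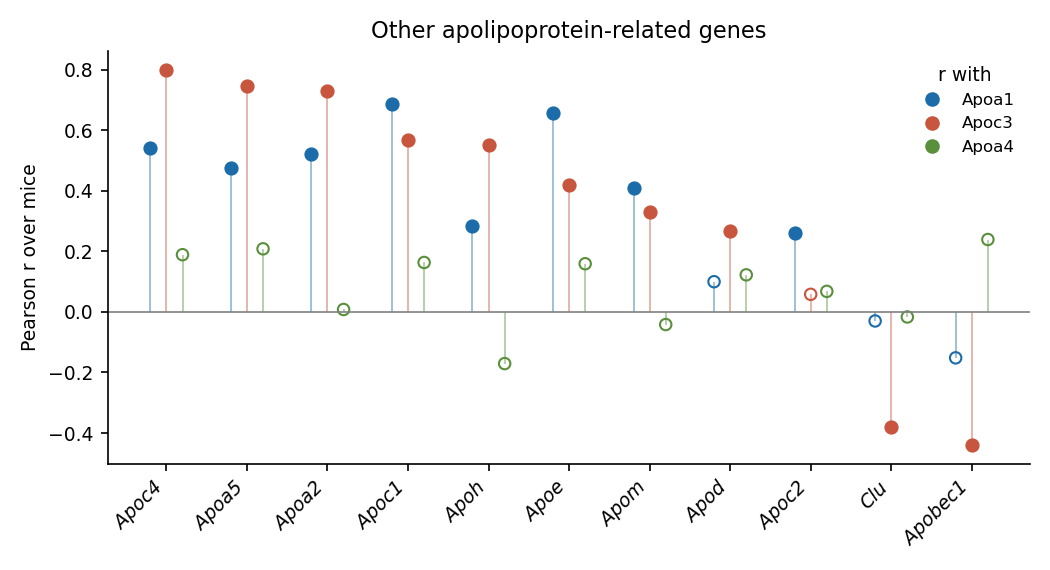
Pearson r over 104 mice (vertical axis) of 11 other apolipoprotein-related genes with Apoa1, Apoc3 and Apoa4. Filled points passed the limma threshold (adjusted p under 0.05) and open points did not. Apoc4, Apoa5 and Apoa2 reach the highest values with Apoc3, Apoc1 and Apoe with Apoa1, and every point for Apoa4 is open.

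Genes that act on HDL were split. Of 10 measured, 2 were positive and 2 negative with Apoa1, 4 and 4 with Apoc3, and 0 and 1 with Apoa4. Among all genes 34.3%, 49.4% and 11.4% were called in the same order. Abca1, the exporter that loads lipid on to apolipoprotein A-I, was negative with both Apoa1 (r = -0.390, rho = -0.455, adjusted p = 0.000342) and Apoc3 (r = -0.496, rho = -0.544, adjusted p = 5.37e-07). Bmp1, a protease that removes the propeptide of apolipoprotein A-I, was positive with Apoa1 (r = 0.411). Pon1, an esterase carried on HDL, had r = 0.706 with Apoc3, Lcat 0.553 and the exporter Abcg1 -0.580. With Apoa4, Lipg, endothelial lipase, was the called gene (r = -0.294, adjusted p = 0.0271). Removing the first principal component left 0 positive and 1 negative with Apoc3, and r was then -0.247 for Lcat, 0.0494 for Abcg1 and 0.199 for Pon1.

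Genes of very low-density lipoprotein (VLDL) assembly and of its clearance were called with Apoc3 in 7 of 10 cases, 6 positive and 1 negative. They were called in 1 case with Apoa1 and in 0 with Apoa4 by limma. The shares over all genes were 49.4% with Apoc3, 34.3% with Apoa1 and 11.4% with Apoa4. The case with Apoa1 was Dgat2, an enzyme of triglyceride synthesis (r = 0.235, adjusted p = 0.0464), whose rho was 0.00792 and whose r without mouse 26 was 0.0844, and with arrays centred on their median 0 were called. With Apoa4, 3 were negative at an unadjusted p under 0.05, 2 were called by rho, and 4 were negative by limma without mouse 26. Sdc1, a heparan sulphate receptor of remnants, had r = 0.537 with Apoc3, Dgat2 0.495 and Mttp, which loads lipid on to apolipoprotein B, 0.457. Sort1, a sorting receptor linked to VLDL secretion, was negative (r = -0.603, rho = -0.586, adjusted p = 1.95e-10). With the probe of most values in place of the average of probes, Sort1 had r = -0.180 (limma adjusted p = 0.116). With the first principal component removed it had r = -0.252 (limma adjusted p = 0.0601), so it passed in neither. For Dgat2 the rho was 0.199, and with the first principal component removed the r of Dgat2 and Mttp with Apoc3 turned to -0.0619 and -0.358, and 0 of the 10 genes were positive and 2 negative with Apoc3.

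Of 19 measured transcription factors known to act on the cluster or on liver lipid genes, 13 were positive with Apoc3 (median r 0.356), 10 with Apoa1 (median 0.237) and 0 with Apoa4 (median -0.0652). Positive over all genes were 26.4%, 17.6% and 4.75% in the same order. At an unadjusted p under 0.05, 1 was positive and 6 negative with Apoa4, and rho called 5 with Apoa4, 6 with Apoa1 and 12 with Apoc3. Nr2f6, an orphan receptor of the COUP-TF family, led with Apoa1 (r = 0.573, rho = 0.594, adjusted p = 4e-08), followed by Nr5a2, a receptor that binds near bile acid and apolipoprotein genes (r = 0.541, rho = 0.450), Rxra, the common partner of nuclear receptors (r = 0.413), and Usf1 (r = 0.391). With the probe of most values in place of the average of probes, Rxra had r = 0.174 with Apoa1 and did not pass (limma adjusted p = 0.163). Nr1h3, the oxysterol receptor LXR alpha, led with Apoc3 (r = 0.667, rho = 0.593, adjusted p = 3.68e-13), followed by the bile acid receptor gene Nr1h4 (0.546), the fatty acid receptor gene Ppara (0.526) and Nr5a2 (0.513). With Apoa4 the called regulator was Nr1d2, a repressor of the clock (r = -0.301, adjusted p = 0.0222), while Hnf4a itself had r = -0.256 (adjusted p = 0.0657) and Rora -0.248 (adjusted p = 0.0748). By rho both passed, Hnf4a at -0.284 (permutation adjusted p = 0.0265) and Rora at -0.303 (0.0163). Without mouse 26, 6 of the 19 were negative with Apoa4 and 6 positive with Apoa1. After removal of the first principal component, 2 were positive and 3 negative with Apoc3, and 4 were positive with Apoa1. The r with Apoc3 was then 0.307 for Nr1h3, -0.104 for Nr1h4 and -0.0211 for Ppara.

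Targets of PPAR alpha, the receptor that drives fatty acid oxidation, and bile acid genes followed Apoc3 in nearly every case. For PPAR alpha targets 12 of 13 were positive with Apoc3 (median r 0.482), among them Acadm (r = 0.650, rho = 0.545) and Cpt2 (r = 0.646, rho = 0.529), both of mitochondrial oxidation, and the hydroxylases Cyp4a10 (0.559) and Cyp4a14 (0.533). With Apoa1, 3 were positive, Cpt1a at r = 0.303 the highest of them, and without mouse 26 and by rho the count was 0. For bile acid synthesis and transport 11 of 11 were positive with Apoc3 (median r 0.546), led by Baat and Slc27a5, which conjugate and activate bile acids (r = 0.700 and 0.649), the importer Slc10a1 (0.641) and the phospholipid exporter Abcb4 (0.577). With Apoa1, 5 of the 11 were positive, led by Abcb4 (0.346) and Baat (0.339), and without mouse 26 the count was 0 and by rho 2. With Apoa4 limma called 0 of 13 PPAR alpha targets and 0 of 11 bile acid genes, where it called 11.4% of all genes. At an unadjusted p under 0.05 these were 0 targets, and 1 positive and 1 negative bile acid gene, and rho called 0 and 3. Without mouse 26, limma called 5 bile acid genes as negative. With the first principal component removed, 0 PPAR alpha targets and 1 bile acid gene stayed positive with Apoc3.

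Genes of fatty acid synthesis were called as negative with Apoa4 and as positive with Apoa1 and Apoc3. Of 11 measured genes, 4 were negative with Apoa4, namely Thrsp, a regulator of lipogenesis (r = -0.338, rho = -0.321, adjusted p = 0.00843), malic enzyme Me1 (r = -0.307), the transcription factor gene Srebf1 (r = -0.281) and pyruvate kinase Pklr (r = -0.269). Without mouse 26 the count was 7 negative, and on the 86 other arrays it was 2. With Apoc3, 6 were positive, led by Elovl5 (r = 0.596) and the desaturases Fads2 (0.526) and Fads1 (0.525). With Apoa1, 4 were positive, led by Scd1, stearoyl-CoA desaturase (r = 0.504, rho = 0.569). After the component was removed, 0 were positive and 2 negative with Apoc3, 1 and 2 with Apoa1, and 1 and 2 with Apoa4, and the r of Fads2 and Fads1 with Apoc3 was -0.0605 and -0.107. Of 13 lipid droplet genes, 1 followed Apoa4, Cidec, which enlarges droplets (r = 0.352, rho = 0.331, adjusted p = 0.0055), while Plin2, the main droplet coat gene, had r = 0.229 (adjusted p = 0.106). Apoc3 had 6 positive and 4 negative droplet genes, Mogat1 at 0.583, Plin5 at 0.452, Fabp4 at -0.549 and Hilpda at -0.548. With the component removed 0 droplet genes passed with Apoc3, at r of 0.239 for Mogat1, 0.00528 for Fabp4 and 0.0712 for Hilpda.

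**Figure D4:**
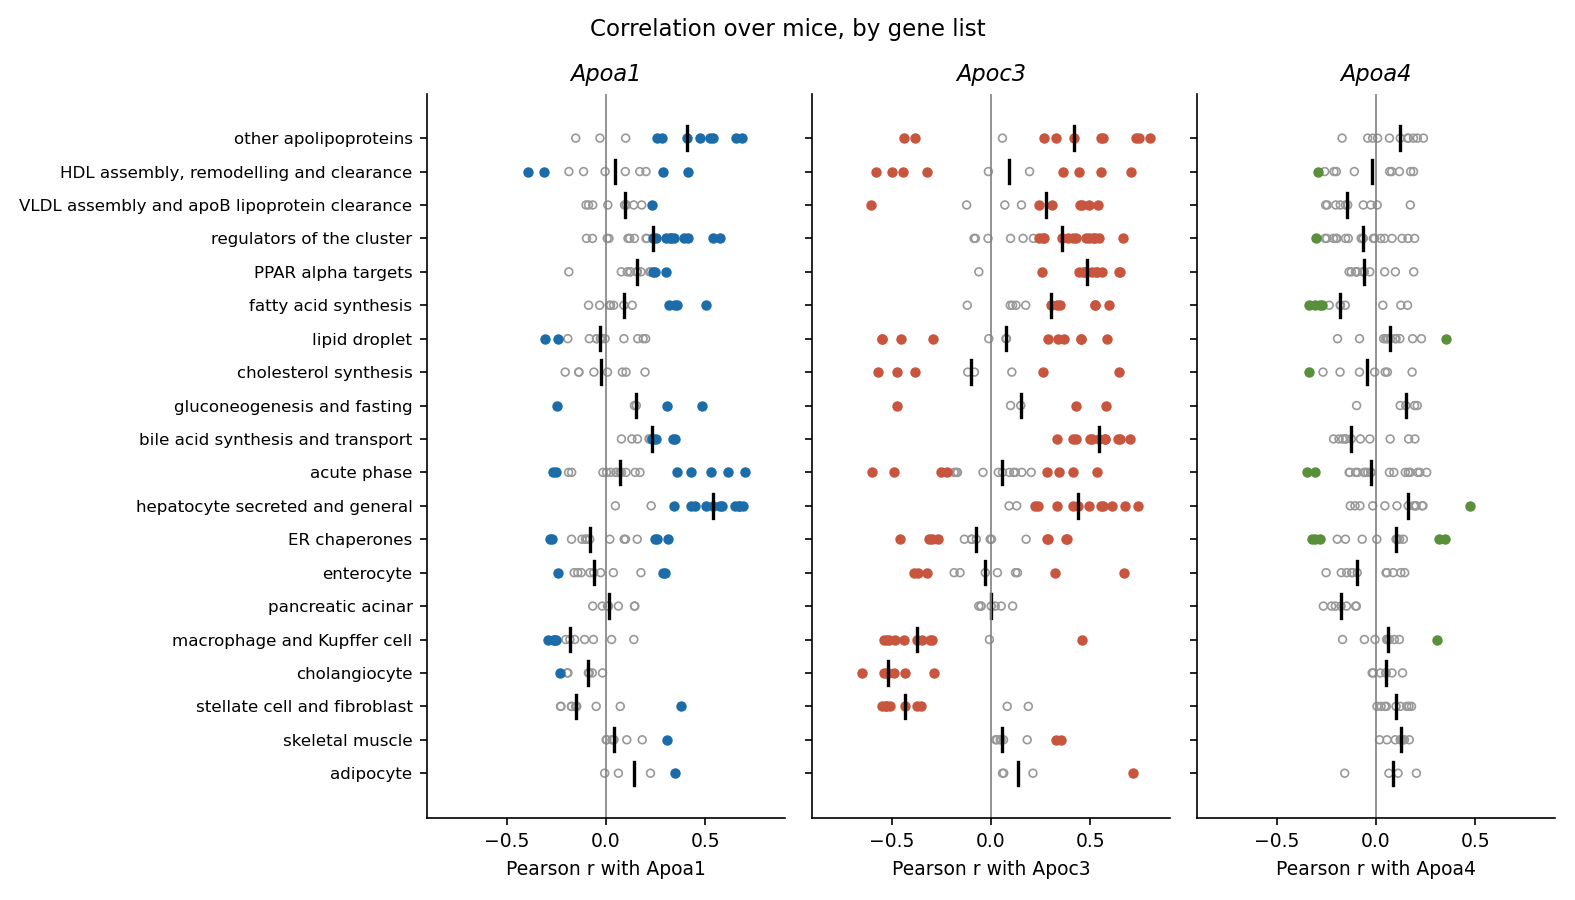
Pearson r over 104 mice of each measured gene of 20 lists (rows) with Apoa1, Apoc3 and Apoa4 (panels), 1 point per gene. Coloured points passed the limma threshold (adjusted p under 0.05), grey points did not, and the bar is the median of the list. Apoc3 has whole lists on 1 side, such as bile acid genes (11 of 11 positive) and cholangiocyte genes (7 of 7 negative), while few points are coloured for Apoa4.

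Genes of cholesterol synthesis, of gluconeogenesis and of endoplasmic reticulum chaperones were called in both directions with Apoc3. Of 8 cholesterol synthesis genes, 0 followed Apoa1 (2 at an unadjusted p under 0.05, 1 by rho), 2 were positive and 3 negative with Apoc3, and 1 was negative with Apoa4. Sc5d had r = 0.647 with Apoc3, and Mvd, Sqle and Lss -0.568, -0.475 and -0.381, and Msmo1 had -0.338 with Apoa4 (adjusted p = 0.00884). Of 5 genes of gluconeogenesis and fasting, 2 were positive and 1 negative with both Apoa1 and Apoc3, with Pck1 at 0.485 for Apoa1, and Fbp1 at 0.577, G6pc at 0.428 and Igfbp1 at -0.474 for Apoc3. With Apoa4, 0 of the 5 passed limma's threshold (2 at an unadjusted p under 0.05, 1 by rho). Of 15 chaperone genes, Apoa4 had 2 positive, Calr (0.345) and Hsp90b1 (0.316), and 3 negative, among them Dnajc3 (-0.320) and Dnajb9 (-0.307). Apoa1 had 3 positive and 2 negative of these, and Apoc3 4 and 4. Called in either direction were 34.3% of all genes with Apoa1, 49.4% with Apoc3 and 11.4% with Apoa4. Once the component was removed, the counts with Apoc3 were 2 positive and 1 negative for cholesterol synthesis, 0 and 0 for gluconeogenesis, and 1 and 2 for chaperones.

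Acute phase genes, many of them secreted by hepatocytes in inflammation, were mixed. Of 19, 5 were positive and 2 negative with Apoa1, 4 and 4 with Apoc3, and 0 and 2 with Apoa4. Over all genes 34.3%, 49.4% and 11.4% were called in the same order, so this list lay near those shares. The positive ones with Apoa1 included all 3 fibrinogen chains, Fgg as given above, Fgb (r = 0.530) and Fga (0.428), and the haemoglobin binder Hp (0.613, rho = 0.585). With Apoc3, Fgg had 0.535, ceruloplasmin Cp -0.600 and Lcn2 -0.485. With Apoa4, Saa4, a constitutive serum amyloid of HDL, had r = -0.348 (rho = -0.407, adjusted p = 0.00633) and Crp -0.307. Of the 13 general hepatocyte genes 11 were positive with Apoa1 (median r 0.539), 11 with Apoc3 (median 0.440) and 1 with Apoa4 (median 0.162). Ambp, Plg, Arg1 and Rbp4 were the highest with Apoa1, Hpd (0.738), Serpinc1 (0.676) and Ttr (0.611) with Apoc3, and Arg1 was the one called with Apoa4 (r = 0.471, rho = 0.515, adjusted p = 0.000104). At an unadjusted p under 0.05, 5 hepatocyte genes were positive with Apoa4, and rho called 6, among them Ahsg (rho = 0.328, permutation adjusted p = 0.00784) and the prothrombin gene F2 (0.322, 0.00949). After removal of the first principal component, 7 hepatocyte genes were positive with Apoc3, 10 with Apoa1 and 4 with Apoa4, and of the acute phase genes 2 were positive and 2 negative with Apoc3. The r with Apoc3 was then 0.345 for Hpd, 0.263 for Serpinc1, 0.0464 for Ttr, -0.139 for Cp and 0.155 for Lcn2.

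Markers of other liver cells fell as Apoc3 rose. Of 7 measured cholangiocyte genes, of the bile duct lining, 7 were negative with Apoc3 (median r -0.520), Cd24a at -0.651, Sox9 at -0.537 and Krt7 at -0.522. Of 11 macrophage and Kupffer cell genes 9 were negative and 1 positive (median -0.370), with Ctss at -0.538 and C1qb at -0.524, and of 9 stellate cell and fibroblast genes 7 were negative (median -0.434), with Sparc at -0.550 and Col1a2 at -0.529. The mean log2 ratio of the cholangiocyte list ran from -1.62 to 2.51 over mice, that of the macrophage list from -1.96 to 1.36 and that of the stellate list from -2.02 to 1.39, and their r with Apoc3 was -0.560, -0.394 and -0.474. With Apoa1 the negative counts were 1, 4 and 0 in the same order, Lyz2 at -0.290 among the 4, and the stellate gene Des was positive (0.379). With Apoa4 they were 0, 0 and 0 by limma and also at an unadjusted p under 0.05, and 1 macrophage gene, C1qa, was positive (r = 0.306). Only 6.67% of all genes were negative with Apoa4 by limma. With the first principal component removed, 0 genes of these 3 lists were negative with Apoc3. The part of these cells in the relations of Apoc3 was not tested.

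Genes of tissues that could be carried along in dissection were counted too. Of 11 enterocyte genes, 2 were positive and 1 negative with Apoa1, and 2 and 3 with Apoc3. With Apoa4, a gene also made in the intestine, 0 were called (1 at an unadjusted p under 0.05, 1 by rho). For comparison, 34.3%, 49.4% and 11.4% of all genes were called with Apoa1, Apoc3 and Apoa4. Fabp2, a fatty acid binding protein of enterocytes, had r = 0.670 with Apoc3, and Vil1 -0.389. Of 7 pancreatic acinar genes limma called 0 with any member. At an unadjusted p under 0.05, 3 were negative with Apoa4 and 0 passed with both other genes, and rho called 3 with Apoa1 and 1 with Apoc3. Of 8 skeletal muscle genes 1 was called with Apoa1, 2 with Apoc3 and 0 with Apoa4, while rho called 2, 4 and 0. Of 4 adipocyte genes 1, 1 and 0 were called. Without the first principal component, 0 of the 11 enterocyte and 0 of the 8 muscle genes passed with Apoc3.

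Whether the slope of a gene differed between 2 members was tested by fitting Apoa1, Apoc3 and Apoa4 together, each scaled to SD 1, and comparing the signed slopes. A higher slope is one that is more positive or less negative, so it does not say which member the gene followed more closely. Of 12312 genes, 2686 (21.8%) differed between Apoa4 and Apoa1, 1203 (9.77%) with the higher slope on Apoa4 and 1483 (12%) with the higher slope on Apoa1. C2cd5 had slopes of 0.15 on Apoa4 and -0.12 log2 per SD on Apoa1 (difference 0.27, SE 0.03, adjusted p = 4.03e-08), with Ncaph2 and Exoc1 next on that side, at differences of 0.23 and 0.21. The call of C2cd5 was lost with values at the limits kept, at a difference of 0.10 (limma adjusted p = 0.574). It was also lost with no filter on missing values, at 0.14 (limma adjusted p = 0.0634). Cd4 had 0.02 and 0.25 (difference -0.23, SE 0.03, adjusted p = 3.24e-07), and Pemt, which makes phosphatidylcholine from phosphatidylethanolamine, -0.16 and 0.10 (difference -0.26, SE 0.04, adjusted p = 6.37e-06). By list, 11 of 13 general hepatocyte genes, 6 of 11 other apolipoproteins, 6 of 19 regulators and 4 of 11 fatty acid synthesis genes had the higher slope on Apoa1. Only 1 other apolipoprotein and 0 of the other 3 lists had it on Apoa4.

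The same contrast between Apoc3 and Apoa1, added after the values were seen, gave 4580 genes (37.2%), 2483 (20.2%) with the higher slope on Apoc3 and 2097 (17%) with the higher slope on Apoa1, and with arrays centred on their median 2016 and 2675. Hibadh, a mitochondrial enzyme of valine breakdown, had slopes of 0.45 on Apoc3 and -0.10 log2 per SD on Apoa1 (difference 0.55, SE 0.06, adjusted p = 7.74e-10), and Dnajc19 and Mccc1, also mitochondrial, differences of 0.60 and 0.35. Sort1 had -0.35 and 0.16 (difference -0.51, SE 0.06, adjusted p = 7.74e-10), and C1qtnf6 and Anks6 had differences of -0.44 and -0.37. Of bile acid genes 10 of 11 and of PPAR alpha targets 10 of 13 had the higher slope on Apoc3, against 0 and 0 on Apoa1. All 7 cholangiocyte, 6 of 11 macrophage, 6 of 9 stellate and 8 of 19 acute phase genes had the higher slope on Apoa1. For the first 3 of these lists that was the less negative side: the median r of cholangiocyte genes was -0.520 with Apoc3 and -0.0881 with Apoa1, that of macrophage genes -0.370 and -0.181, and that of stellate genes -0.434 and -0.152.

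Along the chromosome, 15 measured genes lay within 1 Mb of the cluster, and the 12 nearest are named here. Apoa5, on the far side of Apoa4, followed Apoa1 (r = 0.476, adjusted p = 6.11e-06) and Apoc3, as given above, while its r of 0.208 with Apoa4, the nearer gene, did not pass. Zpr1, a zinc finger gene next to Apoa5, followed Apoa1 (r = 0.431, rho = 0.523, adjusted p = 6.59e-05), with r of 0.0769 for Apoc3 and 0.192 for Apoa4. By rho Zpr1 passed with Apoc3 (0.372, permutation adjusted p = 0.000493) and Apoa4 (0.356, 0.00361) too. On the other side, Sik3, the kinase gene next to Apoa1, passed with none of the 3, at r of 0.0752, 0.179 and 0.0389 for Apoa1, Apoc3 and Apoa4. Pafah1b2, a subunit of an enzyme that inactivates platelet-activating factor, was negative with all 3, at r = -0.383 (adjusted p = 0.000534), -0.437 (1.93e-05) and -0.313 (0.0181). Tagln, a smooth muscle gene, followed Apoa1 (r = 0.454, rho = 0.478), with -0.111 for Apoc3 and 0.128 for Apoa4, and Fxyd2, a subunit of the sodium pump, followed Apoa1 at 0.409 and Apoc3 at 0.261 (adjusted p = 0.0284). Of the other neighbours, 4931429L15Rik, Pcsk7, Bace1 and Dscaml1 were positive with Apoc3, at r of 0.328, 0.271, 0.265 and 0.249, and passed limma with neither Apoa1 nor Apoa4. By rho 4931429L15Rik (0.255) and Dscaml1 (0.253) passed with Apoa1 as well, and with the first principal component removed the r of Pcsk7 and Bace1 with Apoc3 turned to -0.255 and -0.142. With arrays centred on their median, Fxyd2, Pcsk7, Bace1 and Dscaml1 no longer passed with Apoc3, at r of 0.0812, 0.177, 0.216 and 0.201, and with values at the limits kept 4931429L15Rik had r = -0.0217. The transcripts 4833428L15Rik and 2900052N01Rik passed with none of the 3. The neighbours therefore did not share a single pattern.

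**Figure D5:**
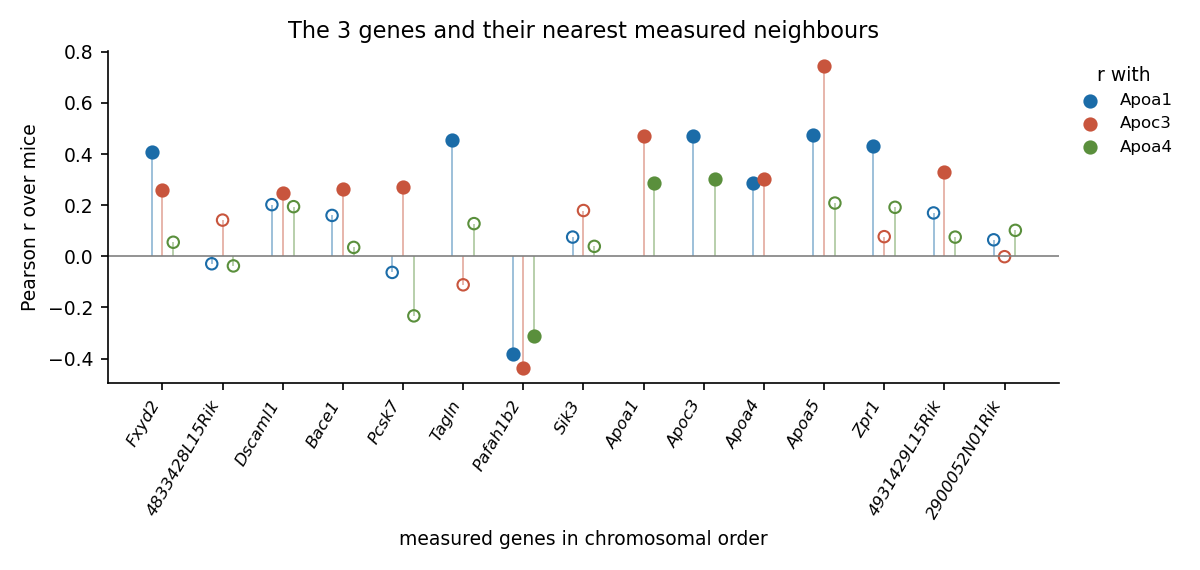
Pearson r over 104 mice (vertical axis) of the 3 genes and their 12 nearest measured neighbours, in chromosomal order, with Apoa1, Apoc3 and Apoa4. Filled points passed the limma threshold (adjusted p under 0.05) and open points did not. Apoa5 stands highest for Apoc3 (0.745), and Pafah1b2 is negative for all 3.

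Neighbours were called about as often as genes elsewhere. Within 1 Mb, 6 of 15 genes followed Apoa1, 8 (53.3%) Apoc3 and 1 (6.67%) Apoa4. On the rest of chromosome 9 the shares were 33.5%, 51.0% and 10.9% of 677 genes, and on other chromosomes 34.5%, 49.4% and 11.5% of 11444. The median absolute r within 1 Mb was 0.170 for Apoa1, 0.249 for Apoc3 and 0.101 for Apoa4, against 0.163, 0.218 and 0.112 on other chromosomes. The 12 named neighbours and the 3 genes are described without a test of their position.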

How the data were processed

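The authors deposited 1 value per probe and array, read here as a log10 ratio of mouse to pool from its limits at exactly -2 and 2, and converted to log2. The log base, the dyes, the normalization and the image analysis are, for this series, not given in the sources used. The labels state 111 mice and the design held 107. For 3 of these the array was empty (0 or missing throughout), so 104 were used. Values at the limits (1.07%) were treated as not measured, and 1.69% were missing. Kept were 20633 of 23536 probes, those measured on 90% of arrays or more. Names came from the platform annotation and RefSeq's gene table (GRCm38.p6): 14744 had 1 symbol, 18 several and 8774 none here, and 11972 of the 12315 genes had a current name. Probes of a gene were averaged. Each member had 1 probe, so agreement between probes of a member could not be tested.

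Each gene was fitted on each member, scaled to SD 1, with limma 3.58.1 in R 4.3.3, at a Benjamini-Hochberg adjusted p of 0.05. Correlations had 100000 two-sided permutations (Python 3.11.15, numpy 2.4.6), intervals are 95% by Fisher's z, and the fits were tested on simulated data. P-values measure the spread between mice and arrays. The members and the 20 gene lists were chosen with earlier results of these data known. Named are, per member, the 10 most positive and 6 most negative called genes, up to 4 genes of largest absolute r per list, leading genes of each contrast, and the 12 nearest neighbours. Alternatives concerned the arrays used, values at the limits, missing values, centring and scaling, shared variation, probes, single mice and rank tests. Leaving out mouse 26, the permutation test of r over all genes and the contrast of Apoc3 with Apoa1 were chosen after seeing the data.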

Additional observations from a re-analysis of the deposited data

How the results depend on the processing

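The number of arrays, the lack of repeated arrays and the single probe per member limit these results, and signal over background was not used here. No paired analysis was possible because all mice form 1 group. With only the 18 limit-rich arrays, limma called 0 genes with Apoa1 (643 at an unadjusted p under 0.05), 0 with Apoa4 (693), 1671 with Apoc3, 0 for Apoa4 against Apoa1 (1269) and 1067 for Apoc3 against Apoa1. With the first principal component removed the counts were 1820 with Apoc3, and 1011 and 1058 for the 2 contrasts. For Apoa4, 2152 genes were called without mouse 26 and 2197 by rho, while the permutation test of r called 1430 (4220 with Apoa1 and 6052 with Apoc3). The r of Apoa1 with Apoc3 was -0.0876 on the limit-rich arrays and -0.00709 with the hepatocyte score regressed out, and its partial r -0.179 on the limit-rich arrays. On those arrays Apoa1 with Apoa4 gave 0.208 and Apoc3 with Apoa4 0.364, neither past the threshold. The partial r of Apoa1 with Apoa4 was 0.291, and passed, with arrays scaled to the same median absolute deviation. That of Apoc3 with Apoa4 missed the threshold at 0.172 on the other arrays, 0.392 on the limit-rich ones, 0.189 with median centring, 0.155 with scaling and 0.159 without mouse 26. Of the differences between pairs, Apoa1's was -0.296 and Apoc3's -0.452 (p = 0.0223) on the limit-rich arrays, Apoc3's was -0.232 with the component removed, and Apoa4's was 0.243 (p = 0.0162) with the component removed, -0.0796 with scaling and -0.00802 without the 2 mice farthest for Apoa4. The log2 SD ratio of Apoc3 over Apoa1 was -0.235 with the component removed, and that of Apoa4 over Apoc3 was 0.478 (p = 0.147) on the limit-rich arrays. The cause of these changes was not tested.

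Of 172 relations of a named gene to a member or contrast, 20 turned sign with the component removed, 8 on the limit-rich arrays, 1 with values at the limits kept (4931429L15Rik with Apoc3, at -0.0217), and 0 in any other alternative. With the component removed, r with Apoc3 was 0.0494 for Abcg1, -0.247 for Lcat, -0.0619 for Dgat2, -0.358 for Mttp, -0.104 for Nr1h4, -0.0211 for Ppara, -0.139 for Cyp4a10, -0.166 for Cyp4a14, -0.0605 for Fads2, -0.107 for Fads1, 0.00528 for Fabp4, 0.0712 for Hilpda, -0.0761 for Fbp1, 0.155 for Lcn2, 0.116 for Ctss, 0.0552 for C1qb, 0.105 for Sparc, 0.169 for Col1a2, -0.255 for Pcsk7 and -0.142 for Bace1. On the limit-rich arrays, r with Apoa1 was 0.0912 for Nsmaf, -0.0661 for Apoa2, -0.0563 for Nr2f6, -0.147 for Nr5a2, -0.0188 for Baat, -0.139 for Abcb4 and -0.508 for Dgat2, and r with Apoc3 was 0.0159 for Igfbp1. Centring arrays on their median left 165 of the 172 with the same sign and on the same side of the threshold. Leaving out the limit-rich arrays left 166, and fitting them as a batch term 169. With the component removed only 116 stayed so, and 33 kept their sign but no longer passed. On the limit-rich arrays alone 61 stayed so, and 103 kept their sign but no longer passed.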

Other observations

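The pool is described in the labels as equal parts of the individual RNAs, so the mean linear ratio of a gene over all mice is a quantity to compare with 1. It was 0.745 for Apoa4, 0.849 for Apoa1 and 1.10 for Apoc3 over 104 mice, with a median of 1.04 over all 12315 genes, and 0.755% of genes had a lower mean ratio than Apoa4. With every sign turned, the mean ratio was 1.58 for Apoa4, 1.28 for Apoa1 and 1.02 for Apoc3, with a median of 1.02 over all genes, and 4.01% of genes had a higher mean ratio than Apoa4. Both readings assume base 10. Apoc3 was above 1 in both, so the mean ratio gives it no side of the pool.

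Cd4 stood first of 12314 genes by r with Apoa1, in front of the fibrinogen and plasminogen genes, and its joint-fit slope on Apoc3 was -0.04 log2 per SD, against 0.25 on Apoa1. Its SD over mice was 0.30 log2. Gfi1b and Fam83c had a higher rho with Apoa4 (0.719 and 0.686) than r (0.576 and 0.575).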
